A study of Mus musculus with 80 samples.

Results

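The genes described here are 9 members of the circadian clock, measured in single medium spiny neurons (MSN) of the mouse striatum: Clock and Npas2, Per1, Per2, Per3 and Cry2, Nr1d1 and Nr1d2, and Dbp. They were taken by name from the table of the series, and 9 of the 9 were found among its 25160 genes. Every library came from a single cell, sorted out of the dorsomedial striatum of adult mice that were heterozygous for 2 reporters, Drd1a-TdTomato and Drd2-EGFP, both of which are BAC transgenes that follow the promoter region of a dopamine receptor gene. All cells shared this genotype, no treatment separated them, and they differed by the reporter they were sorted on, with 40 cells labelled Drd1 and 40 labelled Drd2. Of the cells labelled Drd2, 2 had more than 100 TPM of Chat and were set aside as cholinergic interneurons, which carry the Drd2 reporter as well. This left 40 cells called D1 MSN and 38 called D2 MSN. These names follow the reporter and not the markers, and 3 cells with fewer than 6 of 9 MSN markers, described below, are held among them. The paper did not count every cell it attempted to sequence as usable. The labels do not mark which cells these were, so no further cell was left out here. The cells came from 3 plates, with 18 D1 and 16 D2 MSN on plate FACS051_5, 21 and 19 on plate FACS086_4, and 1 and 3 on plate FACS086_9. The labels do not tie cells to animals, so each reporter group counted as 1 sample. No test was made between groups, and an SD given below is the spread between cells. The hour at which tissue was taken is not given in the sources used here.

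The mammalian clock is a loop of transcription in which the factor CLOCK, or its relative NPAS2, pairs with ARNTL (BMAL1) and binds E-box elements to switch on the Per, Cry and Nr1d genes and Dbp. The PER and CRY proteins come back to block that activator, and NR1D1 and NR1D2 (REV-ERB alpha and beta) repress Arntl through RORE elements. DBP, with TEF and HLF, is a factor of the PAR bZIP family that binds D-box elements. The loop runs in nearly all cells, and in the brain its phase differs from region to region. NPAS2 is known for its strong expression in the forebrain, and Per1 is also induced through CRE elements by signals that act on CREB, such as neuronal activity.

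Promoter windows from RefSeq (build GRCm38.p6, 250 bases before to 50 after a start) were found for 8 of the 9 genes, 11 windows in all. They were searched on both strands for the E-box (CACGTG), the D-box (TTANGTAA), the CRE (TGACGTCA) and the RORE (ANTAGGTCA). In the 32851 windows of the genome, the share holding each motif was 7.15% for the E-box, 2.32% for the D-box, 1.79% for the CRE and 0.661% for the RORE. Of the clock genes, 2 had a match: 1 window of Per1 held an E-box at position -166 from the start, and the window of Per3 held a D-box at positions -205 and -158. These windows are shown because they hold the elements of the loop, and that of Clock because Clock had the D1 to D2 difference most alike on the large plates. Each line gives positions -250 to -51 in the direction of the gene, with the matches in capitals. The Per1 window lies at chr11:69098699-69098898 (plus strand), inside the annotated gene and before the first exon of another transcript of it. Those of Per3 and Clock lie at chr4:151044716-151044915 and chr5:76304843-76305042 (both minus strand), and the Clock window overlaps an exon of another gene, Gm7467.
Per1: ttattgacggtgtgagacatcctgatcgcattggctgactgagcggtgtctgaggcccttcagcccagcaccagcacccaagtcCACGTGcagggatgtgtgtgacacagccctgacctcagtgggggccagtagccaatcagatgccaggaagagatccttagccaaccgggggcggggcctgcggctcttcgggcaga
Per3: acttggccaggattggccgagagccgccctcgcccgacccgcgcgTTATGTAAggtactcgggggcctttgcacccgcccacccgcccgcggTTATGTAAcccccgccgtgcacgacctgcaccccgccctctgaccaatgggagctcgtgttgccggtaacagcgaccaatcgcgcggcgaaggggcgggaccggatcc
Clock: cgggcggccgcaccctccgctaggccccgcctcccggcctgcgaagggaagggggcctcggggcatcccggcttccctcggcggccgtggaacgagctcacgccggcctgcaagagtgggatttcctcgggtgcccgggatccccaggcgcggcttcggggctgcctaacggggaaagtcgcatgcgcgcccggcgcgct
A match is a run of letters and was not tested for binding, and a window without one says nothing of elements elsewhere.

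The identity of the cells was looked at first. Expression is in TPM, which are corrected for transcript length and scaled within each cell. TPM keep no read depth, so a gene without any value in a cell is called listed at 0. A D1 MSN had 648 to 8657 genes above 1 TPM (median 5722) and a D2 MSN 1215 to 7942 (median 4927.5). The order was opposite on the large plates, with medians of 5109 in D1 and 5923 in D2 on FACS051_5, and 5730 and 4617 on FACS086_4. Of 9 MSN markers, the median cell of either subtype had 9 above 1 TPM. Summed, these markers ran from 4.204 to 6357 TPM in D1 MSN and from 857 to 8082 TPM in D2 MSN. Fewer than 6 MSN markers were found in 3 cells. The cell labelled Drd1 in well D04 of FACS051_5 had 4, together with 14105 TPM of astrocyte markers. That in well B02 of FACS086_4 had 1 marker and the fewest genes (648), and the cell labelled Drd2 in well A12 of FACS086_9 had 5 markers and 1215 genes. The last carried 1218 TPM of Tac1, the peptide gene of the other subtype, and 4 further cells carried over 100 TPM of Penk in D1 or of Tac1 in D2. Summed astrocyte markers (6 of 7 in the table) had a median of 1.36 TPM in D1 and 0.579 TPM in D2 MSN, and the highest level in any other MSN was 225 TPM. Folds of clock genes that these cells move by much are given also without them.

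Clock genes were found in scattered cells rather than evenly. Of all 25160 genes of the table, the share found in fewer cells ran from 61.9% for Per2 to 92.5% for Clock. The scatter is therefore not read as particular to the clock genes. Of the 9 genes, the median MSN had 4 above 1 TPM, 3 cells had 0 and 2 cells had all 9. The mean number was 4.40 in D1 and 3.92 in D2 MSN. On FACS051_5 it was 4.56 in D1 and 5.06 in D2, and on FACS086_4 it was 4.19 and 3.37, so the order of the subtypes followed that of the genes found per cell on each plate. Across the 78 MSN, Spearman's rho between the number of clock genes and the number of all genes above 1 TPM was 0.684, and within the large plates it was 0.649 and 0.640. Both numbers come from the same library, so this describes how far detection moves with the cell as a whole. The 3 cells without any clock gene were 1 cell of each large plate and well A12 of FACS086_9.

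**Figure D1:**
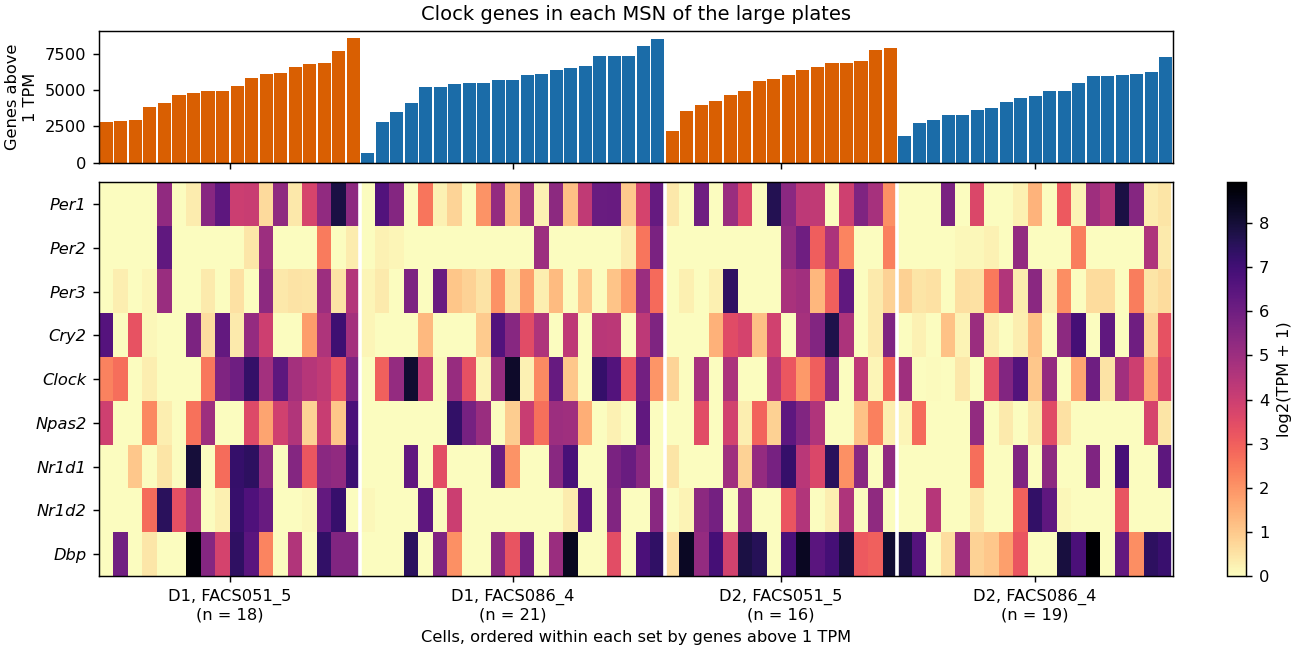
Each column is 1 MSN of the large plates, ordered within reporter and plate by its number of genes above 1 TPM (bars, top), and each row of the lower panel is a clock gene coloured by log2(TPM + 1). Cells on the right of each block, with more genes found, hold more coloured fields, and no gene is coloured in every cell.

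TPM take account of gene length, so the levels of the genes are set side by side, with a limit. The paper describes more signal at the 3' end of transcripts in its data, a bias it ties above all to long ones. Clock has 13727 exon bases and Dbp 2993, and the part of this bias in the order of the genes was not tested. Averaged over the 78 MSN, Dbp was highest at 78.2 ± 112 TPM (SD between cells), above the mean of 94.2% of all genes. Clock followed at 30.3 ± 56.2, Nr1d1 at 28.9 ± 50.4, Per1 at 25.5 ± 45.1, Nr1d2 at 20.5 ± 40.5 and Cry2 at 19.4 ± 36.4 TPM. Lowest were Npas2 at 12.4 ± 26.4, Per3 at 9.0 ± 23.7 and Per2 at 5.19 ± 14.6 TPM, the last still above the mean of 59.9% of genes. In this order no neighbours differed by more than the larger of their SD, that of Dbp and Clock included. By medians the order was Dbp (17.9 TPM), Clock (7.68), Per1 (4.06) and Cry2 (0.834), and Nr1d1 ranked lower by the median than by the mean, with 39 of the 78 cells listed at 0. In the cells where they were above 1 TPM, Nr1d1 and Nr1d2 had medians of 41.9 and 41.5 TPM, against 25.5 for Clock, which was found in more cells. The REV-ERB genes were thus the ones found in fewer cells but at high values, and Dbp was high on both counts, with a median of 87.5 TPM in the 51 cells where it was found.

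**Figure D2:**
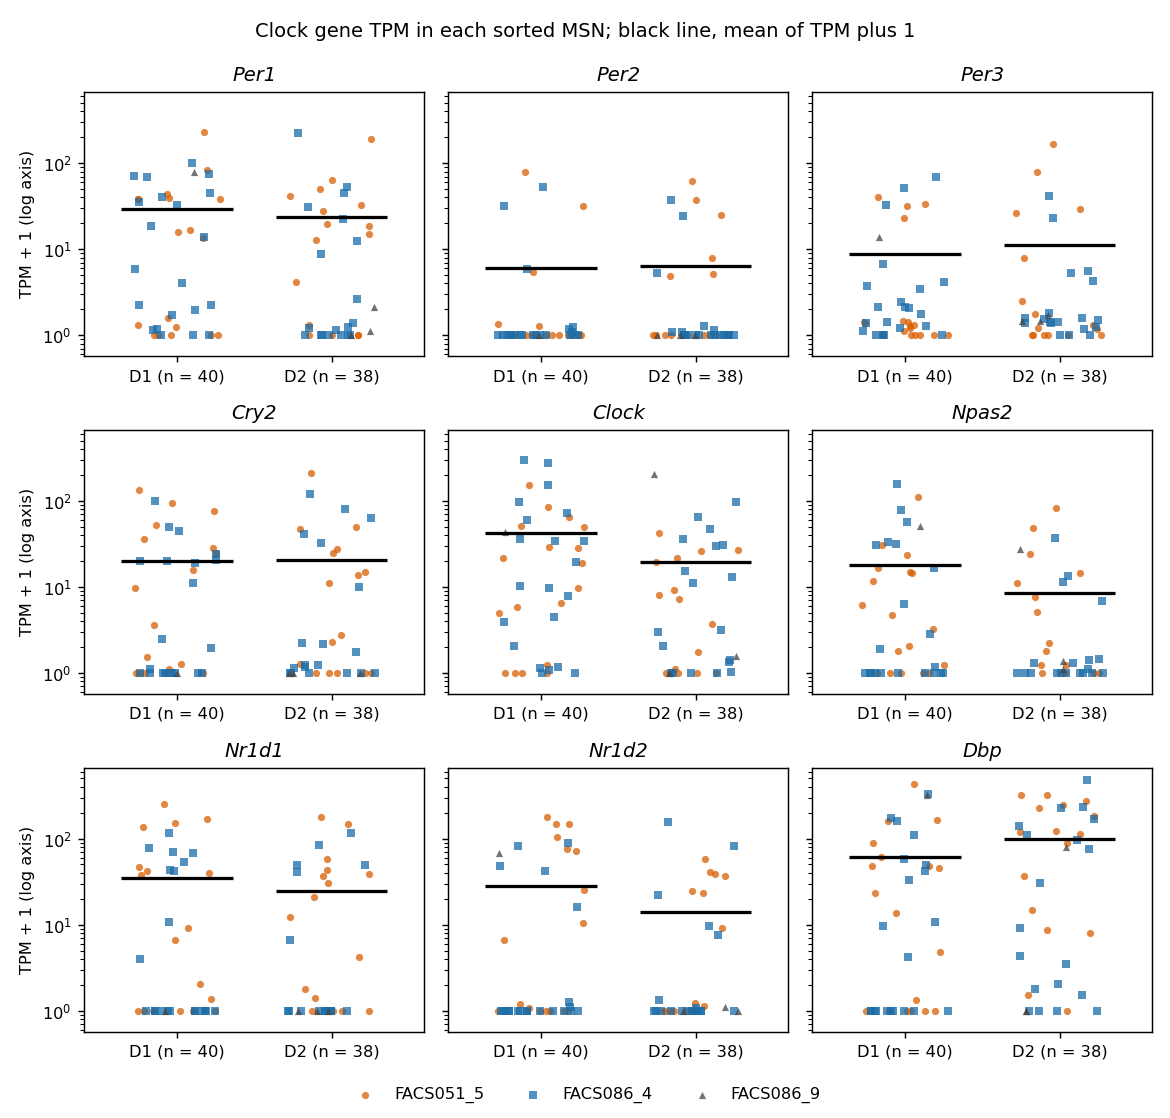
TPM plus 1 of each clock gene on a log axis, 1 point per MSN, for 40 D1 and 38 D2 MSN, with the plate by colour and shape and the mean as a black line. For all 9 genes the points of both subtypes reach down to 0 and overlap over most of their range. The means lie above most points, since few cells carry much of the sum for most genes. For Dbp in D2 MSN the mean (97.9 TPM) lies nearer the median (55.4 TPM), with 15 of 38 cells above 100 TPM.

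Which clock genes differ between D1 and D2 MSN is the comparison that the reporters allow. Clock and Npas2, the activators, and Nr1d2 averaged over 2 times as high in D1 as in D2 MSN, Dbp was higher in D2 MSN, and Per2 and Cry2 had nearly equal means. Of these, only Clock was past a log2 fold of 1 on both large plates. To form the log2 fold, 1 was added to both mean TPM values and D1 was divided by D2. Past 1 lay 3 of the 9 genes in the direction of D1, and 0 lay below -1. Among the 15671 genes that averaged 1 TPM or more, 21.1% were above 1 and 14.8% below -1, so 3 of 9 with so few genes is not a result about the clock as a set. The median fold was 0.30 for the clock genes and 0.09 for all genes. On both large plates 1 of 9 was above 1, against 6.08% of all genes, and 0 were below -1, against 4.47%. The fold had the same sign on both plates for 5 of the 9, namely Per1, Clock, Npas2, Nr1d1 and Dbp, and for 47.5% of all genes.

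**Figure D3:**
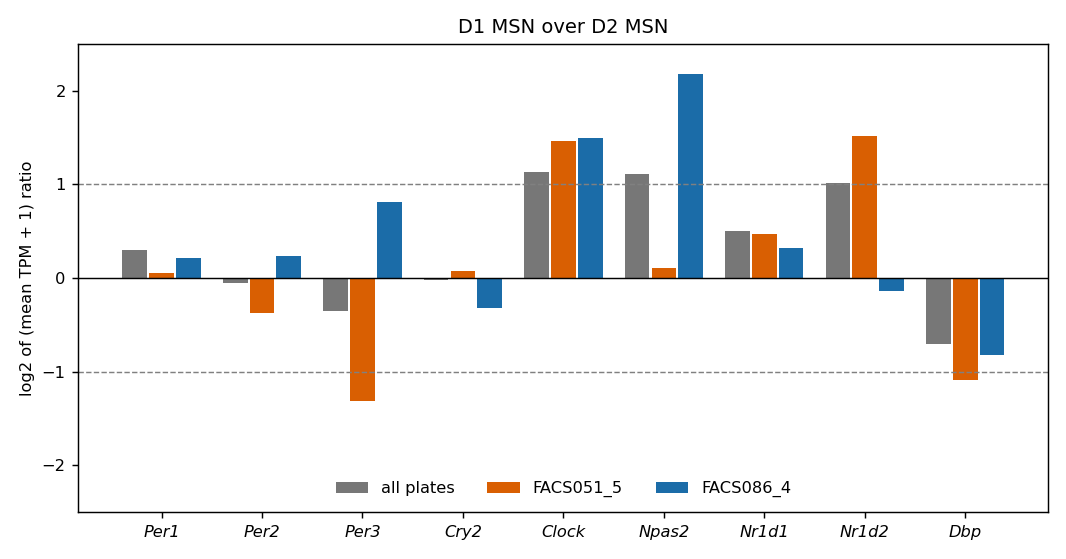
Log2 ratio of the mean TPM plus 1 in D1 over D2 MSN for each clock gene, over all plates and within each large plate, with dashed lines at a log2 fold of 1 and -1. Clock stands at 1.46 and 1.49 on the large plates and Dbp at -1.09 and -0.82, whereas Npas2 and Nr1d2 are past 1 on 1 plate each and Per3 changes sign.

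Clock (chr5:76209868-76304792, minus strand) encodes the bHLH-PAS partner of ARNTL. In D1 MSN it ran from 0 to 295 TPM with a median of 13.6, and 30 of 40 cells were above 1 TPM (75.0%, exact 95% interval 58.8 to 87.3%). In D2 MSN it ran from 0 to 202 TPM with a median of 2.45, and 22 of 38 cells were above 1 TPM (57.9%, 40.8 to 73.7%). The ranges overlapped up to the D2 maximum, and above 100 TPM stood 4 D1 cells and 1 D2 cell. The means were 41.5 ± 68.4 TPM in D1 and 18.4 ± 37.0 TPM in D2, a log2 fold of 1.13. On FACS051_5 they were 28.7 in D1 and 9.79 in D2, and on FACS086_4 52.4 and 17.96, which gave log2 folds of 1.46 and 1.49. The part of the number of genes found per cell in these folds was not tested. The highest D2 value, 202 TPM, stood in a single cell of the small plate, FACS086_9, where the other 2 D2 MSN had 0.57 and 0 TPM. With FACS086_4 left out, that cell weighed more and the log2 fold was 0.61, and with FACS086_9 left out it was 1.48. Leaving out the highest cell of each group gave 1.31, and leaving out the 3 cells with fewer than 6 MSN markers gave 1.16.

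Npas2 (chr1:39193731-39363236, plus strand) encodes the forebrain relative of CLOCK. It ran from 0 to 156 TPM in D1 MSN, with a median of 1.45 and 21 of 40 cells above 1 TPM (52.5%, 36.1 to 68.5%). In D2 MSN it ran from 0 to 82.1 TPM, with a median of 0.268 and 13 of 38 cells above 1 TPM (34.2%, 19.6 to 51.4%). The subtypes overlapped, and the difference lay on 1 plate. On FACS086_4 the mean was 19.3 TPM in D1 and 3.49 in D2, a log2 fold of 2.179, with 9 of 21 and 4 of 19 cells above 1 TPM. Well C05, with Tac1 above 100 TPM, held 54.4% of the D2 sum, and without the cells of mixed peptide genes the log2 fold was 2.88. On FACS051_5 it was 12.8 and 11.8 TPM, a log2 fold of 0.11. The value over all plates, 1.11, was 0.35 without FACS086_4 and 2.05 without FACS051_5. On FACS086_4, D1 MSN also had the larger number of genes found, and the part of this in the difference was not tested.

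Since CLOCK and NPAS2 take the same place in the activator, their presence in the same cells was counted. Both were above 1 TPM in 25 of the 78 MSN, only Clock in 27, only Npas2 in 9 and neither in 17. Independent genes of these frequencies would share 22.7 cells. At least 1 of the pair was above 1 TPM in 35 of 40 D1 and 26 of 38 D2 MSN. Their shared partner Arntl averaged 37.6 ± 50.1 TPM in D1 and 32.9 ± 68.6 TPM in D2 MSN and was above 1 TPM in 20 of 40 and 13 of 38 cells. Arntl stood together with Clock in 22 cells, where 22.0 would be shared if independent, and with Npas2 in 20 cells, where 14.4 would be. Within the large plates, Npas2 and Arntl met in 11 cells of FACS051_5 (8.94 if independent) and 8 of FACS086_4 (5.2). Cells with more genes found hold more of any pair, and the part of this in the counts was not tested.

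Among the repressors, Per1 (chr11:69095217-69109960, plus strand) was the Per gene found most often. Values ran from 0 to 227 TPM in D1 MSN, with a median of 12.6 and 25 of 40 cells above 1 TPM (62.5%, 45.8 to 77.3%). In D2 MSN it ran from 0 to 224 TPM, with a median of 1.39 and 20 of 38 cells above 1 TPM (52.6%, 35.8 to 69.0%). The means, 28.3 ± 42.9 and 22.7 ± 47.8 TPM, lay much closer than the medians, and the log2 fold was 0.30. Within plates it was 0.05 on FACS051_5 and 0.21 on FACS086_4. On FACS086_4 a single D2 cell at 224 TPM carried 57.01% of the D2 sum, and with the highest cell of each group left out the log2 fold there was 1.04.

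Per2 (chr1:91415982-91459324, minus strand) was the sparsest of the clock genes. It ran from 0 to 78.8 TPM in D1 MSN and from 0 to 61.9 TPM in D2 MSN, with a median of 0 in both, and 6 of 40 and 9 of 38 cells were above 1 TPM. The shares were 15% (5.71 to 29.8%) and 23.7% (11.4 to 40.2%). Its means of 5.07 ± 15.9 and 5.31 ± 13.4 TPM gave a log2 fold of -0.06, which was -0.37 on FACS051_5 and 0.23 on FACS086_4.

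Per3 (chr4:151003652-151044665, minus strand) had opposite signs on the plates. It ran from 0 to 67.5 TPM in D1 MSN (median 0.409, 16 of 40 cells above 1 TPM, 40.0%, 24.9 to 56.7%) and from 0 to 165 TPM in D2 MSN (median 0.472, 11 of 38 cells, 28.9%, 15.4 to 45.9%). On FACS051_5 the mean was 7.11 TPM in D1 and 19.2 in D2, a log2 fold of -1.32, and the highest D2 cell held 53.7% of the D2 sum. On FACS086_4 the mean was 8.16 and 4.23 TPM, a log2 fold of 0.81. There 50.9% of the D2 sum stood in well C09, a D2 cell with Tac1 above 100 TPM, and without the cells of mixed peptide genes the log2 fold was 1.47, past the limit. The value over all plates, -0.35, was -1.04 without FACS086_4 and 0.99 without FACS051_5, so its direction rested on which plate was read.

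How often the Per genes met within a cell was counted against what independent genes would share. Per2 and Per3 were both above 1 TPM in 10 of the 78 MSN, where 5.19 would be shared if independent, and 8 of these were on FACS051_5, where 2.65 would be. On FACS086_4 they met in 2 cells, where 2.40 would. Per1 and Per2 met in 9 cells (8.65 if independent) and Per1 and Per3 in 19 (15.6). These counts were taken as a description, and cells with more genes found hold more of any pair.

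Cry2 (chr2:92403646-92434043, minus strand), the cryptochrome of the set, had nearly the same mean in the subtypes. It ran from 0 to 134 TPM in D1 MSN, with a median of 1.21 and 20 of 40 cells above 1 TPM (50.0%, 33.8 to 66.2%). In D2 MSN it ran from 0 to 209 TPM, with a median of 0.507 and 18 of 38 cells above 1 TPM (47.4%, 30.98 to 64.2%). The means were 19.2 ± 31.6 and 19.5 ± 41.2 TPM. Their log2 fold of -0.02 split into 0.07 on FACS051_5 and -0.32 on FACS086_4. This depended on the scaling: after rescaling to the median of widely found genes the fold was 0.80 over all plates and 1.32 on FACS051_5. Its exons share 295 bases (4.67%) with the opposite-strand gene D930015M05Rik, and whether the counting used strand is not given in the sources used here, so reads from these bases cannot be told apart.

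**Figure D4:**
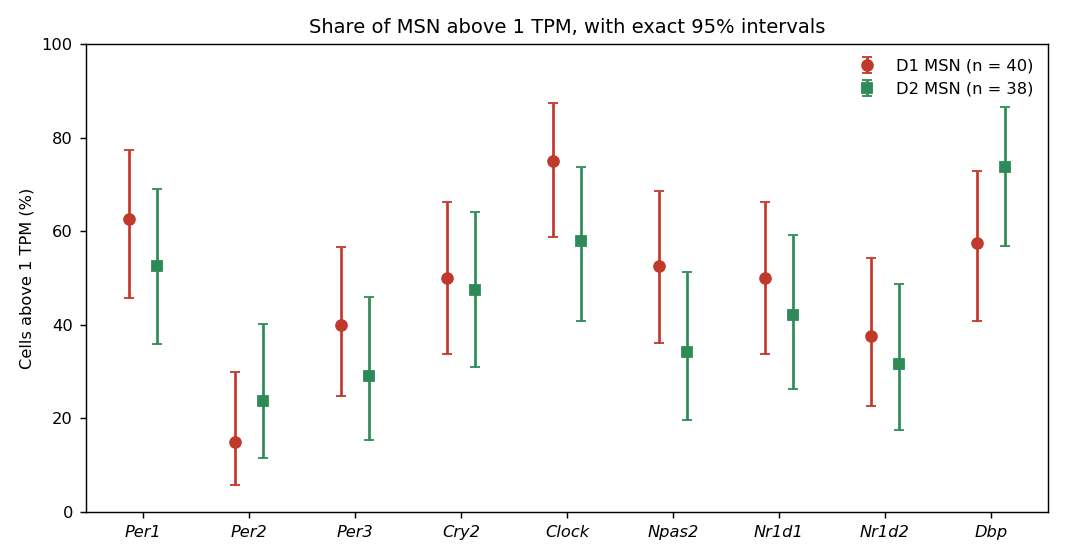
Share of D1 (n = 40) and D2 (n = 38) MSN above 1 TPM for each clock gene, in percent, with exact 95% intervals that cover counting error only. The intervals of the subtypes overlap for each of the 9 genes, with the highest shares for Clock in D1 (75.0%) and Dbp in D2 (73.7%) and the lowest for Per2 (15% and 23.7%).

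Nr1d1 (chr11:98767932-98775333, minus strand) encodes REV-ERB alpha. Its values reached from 0 to 251 TPM in D1 MSN, with a median of 0.706 and 20 of 40 cells above 1 TPM (50.0%, 33.8 to 66.2%). In D2 MSN it ran from 0 to 175 TPM, with a median of 0 and 16 of 38 cells above 1 TPM (42.1%, 26.3 to 59.2%). The highest D1 value was in well D04 of FACS051_5, the cell with astrocyte markers and 4 MSN markers. The means of 33.9 ± 57.03 and 23.7 ± 42.5 TPM gave a log2 fold of 0.50, which was 0.47 and 0.32 on the large plates. With the 3 cells of few MSN markers left out it was 0.25 over all plates and 0.08 on FACS051_5. Of its exon bases, 263 (8.55%) overlap the exons of Thra, a thyroid hormone receptor gene on the opposite strand, so those reads cannot be told apart either.

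Nr1d2 (chr14:18204054-18239127, minus strand) encodes REV-ERB beta. It was listed at 0 in 21 of 40 D1 and 21 of 38 D2 MSN, ran up to 178 TPM in D1 and 155 TPM in D2, and had a median of 0 in both. Above 1 TPM were 15 D1 cells (37.5%, 22.7 to 54.2%) and 12 D2 cells (31.6%, 17.5 to 48.7%). The means were 27.4 ± 47.8 and 13.1 ± 30.05 TPM, a log2 fold of 1.01 that is just past the limit. On FACS051_5 it was 1.52, with 42.1 TPM in D1 and 14.04 in D2, and 4 D1 cells but 0 D2 cells were above 100 TPM. On FACS086_4 it was -0.14, with 13.0 and 14.4 TPM, where the highest D2 cell held 56.9% of the D2 sum. That cell, well C09, was also 1 of the D2 cells with Tac1 above 100 TPM, and without the cells of mixed peptide genes the log2 fold on this plate was 0.82. Without FACS051_5 the fold over the other plates was 0.29.

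The REV-ERB genes shared about as many cells as independent genes of their frequencies would. Both were above 1 TPM in 13 of the 78 MSN, only Nr1d1 in 23, only Nr1d2 in 14 and neither in 28, where independent genes would share 12.5.

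Dbp (chr7:45705088-45710203, plus strand), the output factor of the set, had the largest difference of the 9 in the direction of D2 over all plates. It ran from 0 to 435 TPM in D1 MSN, with a median of 9.16 and 23 of 40 cells above 1 TPM (57.5%, 40.9 to 73.0%). In D2 MSN it ran from 0 to 484 TPM, with a median of 55.4 and 28 of 38 cells above 1 TPM (73.7%, 56.9 to 86.6%). The ranges overlapped, and values above 100 TPM stood in 8 D1 and 15 D2 cells. The means were 59.5 ± 102 and 97.9 ± 120 TPM, a log2 fold of -0.71. On FACS051_5 the mean was 60.2 TPM in D1 and 129 in D2 (-1.09), and 11 of 18 D1 but 14 of 16 D2 cells were above 1 TPM. On FACS086_4 it was 46.4 and 82.8 TPM (-0.82), with 11 of 21 and 13 of 19 cells. D2 MSN thus averaged higher on both plates, and the part of the number of genes found per cell was not tested. The D1 maximum was again well D04 of FACS051_5, and without the cells of few MSN markers the log2 fold was -0.96 over all plates and -1.73 and -0.75 on the large plates. As a difference of mean log2 values, which weighs each cell's log value alike, the difference was -1.17, past the limit. The exons of Dbp share 539 bases (18.01%) with those of Sphk2, a sphingosine kinase gene on the opposite strand, and reads from them cannot be told apart.

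The large plates were compared within each subtype, since the animal or the hour of sampling may differ between them. The cells came from 3 animals in as many experiments, but which plate holds which animal, day or hour is not in the labels, so these cannot be told apart. No clock gene was past a log2 fold of 1 in the same direction in both subtypes: 0 of 9 were higher on FACS051_5, against 6.53% of all genes, and 0 of 9 were lower, against 5.45%. Per1, Per2, Cry2, Nr1d1 and Dbp, 5 of the 9, were higher on FACS051_5 than on FACS086_4 in both subtypes, as were 27.5% of all genes. Clock alone of the 9 was lower in both, as were 3633 of the 15671 genes that averaged 1 TPM or more. Without the cells of few MSN markers, Dbp was no longer among the 5, with -0.35 in D1 and 0.64 in D2 MSN. Per1 turned to -0.53 and -1.12 after rescaling to the median of widely found genes, and its fold in D1 to -0.10 without the highest cell of each group, where that of Cry2 in D2 was -0.02.

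Nr1d1 came nearest to the limit, with log2 folds of FACS051_5 over FACS086_4 of 1.08 in D1 and 0.93 in D2 MSN. It was above 1 TPM in 21 of 34 MSN of the first plate (61.8%, 43.6 to 77.8%) and in 15 of 40 of the second (37.5%, 22.7 to 54.2%). Without the cells of few MSN markers, of which well D04 held the highest Nr1d1 value, the fold in D1 was 0.62. Clock had folds of -0.85 in D1 and -0.81 in D2, so its plate difference was of like size in the subtypes. Cry2 had 0.80 and 0.42, Dbp 0.37 and 0.64, Per1 0.33 and 0.48, and Per2 0.50 and 1.11. For the other 3 genes the subtypes disagreed, with -0.17 in D1 and 1.95 in D2 for Per3, -0.56 and 1.51 for Npas2, and 1.62 and -0.03 for Nr1d2. The sign of Nr1d2 in D2 rested on well C09 of FACS086_4, and without the cells of mixed peptide genes the plate folds were 1.49 in D1 and 0.93 in D2. For Per3 they were then -0.03 and 2.62.

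**Figure D5:**
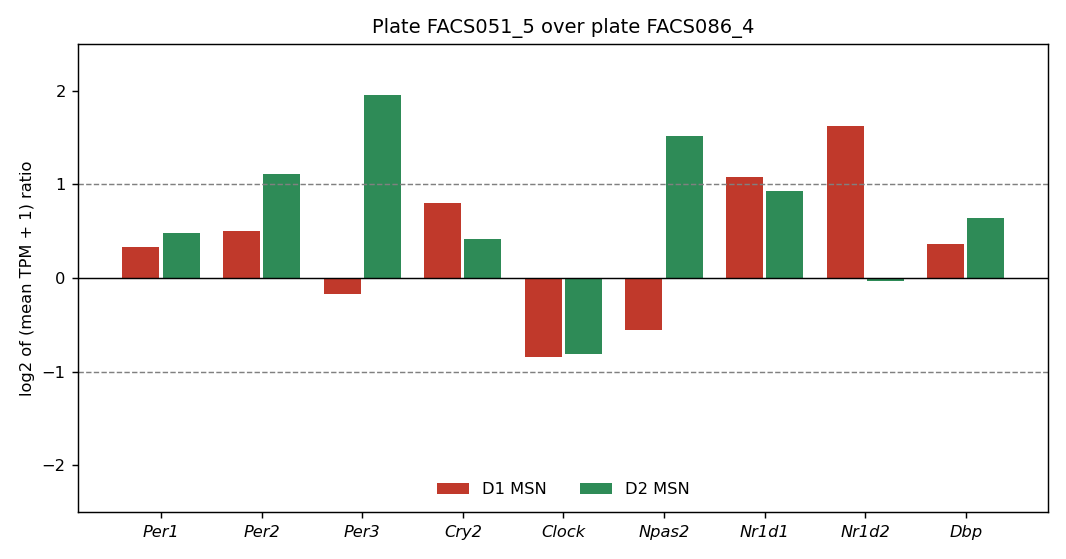
Log2 ratio of the mean TPM plus 1 on plate FACS051_5 over plate FACS086_4 for each clock gene, within D1 and within D2 MSN, with dashed lines at a log2 fold of 1 and -1. Nr1d1 is near 1 in both subtypes (1.08 and 0.93) and Clock below 0 in both (-0.85 and -0.81), while Per3, Npas2 and Nr1d2 differ in sign, but the D2 fold of Nr1d2 is 0.93 without the cells of mixed peptide genes.

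Whether clock genes varied together from cell to cell was described by Spearman correlations of TPM within each large plate (34 and 40 MSN), for the 36 pairs of the 9 genes. Averaged over the plates, rho lay between -0.09 and 0.45 with a median of 0.11, and 4 pairs were above 0.3. Clock and Nr1d1 had 0.47 on FACS051_5 and 0.44 on FACS086_4, and Nr1d1 and Dbp 0.34 and 0.40. The other pairs above 0.3 rested on FACS051_5: Per2 and Per3 had 0.67 there and -0.06 on FACS086_4, and Per1 and Clock had 0.48 and 0.12. All of these share the depth of each cell's library, and Nr1d1 itself had a mean rho of 0.44 with the number of genes found.

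Of 22 further genes of the clock (partners, kinases, ligases and the other PAR bZIP factors), 21 were in the table, all averaging 1 TPM or more. Past a log2 fold of 1 in the direction of D1 lay 3 of the 21 and below -1 lay 0, against 21.1% and 14.8% of all genes. On both large plates 0 were past the limit in either direction, against 6.08% and 4.47%. The 3 were Tef (1.42), Timeless (1.22) and Bhlhe40 (1.21). Like Arntl, Hlf and Cry1, they are named with their values known. Tef and Hlf, the relatives of Dbp, had opposite directions. Tef averaged 77.2 ± 103 TPM in D1 and 28.1 ± 39.8 in D2 MSN, with log2 folds of 0.82 on FACS051_5 and 2.03 on FACS086_4. Hlf averaged 33.8 ± 39.4 and 61.4 ± 71.0 TPM, with -0.82 and -1.08, on the side of D2 as Dbp was. Dbp and Tef were above 1 TPM together in 42 of the 78 MSN (37.3 if independent) and Dbp and Hlf in 38 (35.96). The other repressor of the Cry family, Cry1, averaged 22.8 ± 44.3 and 20.7 ± 33.2 TPM. Of the 21, only Cry1 was higher on FACS051_5 past the limit in both subtypes (1.97 in D1 and 1.38 in D2), against 6.53% of all genes.

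The genes that share inducers with Per1 were counted beside it, where 21.1% of all genes were above 1 and 14.8% below -1. With lists this short nothing is read from the counts. Of 10 genes induced by neuronal activity, 9 averaged 1 TPM or more, and 0 were past a log2 fold of 1 in either direction between D1 and D2. Of 8 genes induced by glucocorticoids, 6 had such a mean, 1 was above 1 and 2 were below -1. Of these, Cdkn1a, a cell cycle inhibitor, was below -1 on both plates (-1.10 and -2.06), as were 4.47% of all genes. Its means were 1.04 ± 2.64 TPM in D1 and 5.12 ± 23.6 TPM in D2 MSN, although more D1 than D2 cells were above 1 TPM (6 of 40 and 2 of 38). Of 7 output genes of the clock with E-box or D-box control, 5 were in the table under the names searched and 4 had such a mean. Among these, 2 were above 1, 0 below -1, and 0 were past the limit on both plates. Tsc22d3 (1.13) is in both the glucocorticoid and the output list, so it was counted above 1 in each.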

How the data were processed

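Single MSN were sorted into plates, and cDNA was made from each with the SMARTer v3 kit. Per the labels and the study's methods, reads were aligned with STAR 2.5.0 to mm10/GRCm38 and summarised per gene with featureCounts 1.5.1, and DESeq2 1.14.1 was the authors' test. The authors deposited TPM per gene and cell; how they were made from the counts is not given in the sources used here. Listed TPM summed to 506588 to 958040 per cell, so part of the total lay outside the listed genes. Depth cannot be read from TPM, and 0 columns belonged to no sample.

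Groups came from the labels' marker gene, and plates from the titles without the well. The clock genes, the lists and the limits were chosen with earlier results of these data known. All 9 clock genes are named. The genes most like Cry2 and Npas2 are not reported here. From other lists, the genes past the limit on both large plates are named, and any others were chosen after their values were seen. Folds are log2 of (mean TPM + 1) ratios, with a limit of 1, and understate changes of low genes. A gene was found in a cell when above 1 TPM. The 95% intervals of such shares are exact (Clopper-Pearson) and reflect counting error alone. Cells labelled Drd2 above 100 TPM of Chat were left out. A count test cannot be run on TPM. The alternatives changed the pseudocount (0.1 and 10 TPM), the mean, the scaling and the cells used. Another 2, chosen after seeing the data, left out cells with fewer than 6 of 9 MSN markers or with the other subtype's peptide gene above 100 TPM. Positions are GRCm38 (GENCODE M21). The fold step was tested on the deposited values, with cells put into groups at random and some genes raised by a known fold. Software was scipy 1.17.1, pandas 2.3.3, numpy 2.4.6 and matplotlib 3.10.9 under Python 3.11.15.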

Additional observations from a re-analysis of the deposited data

How the results depend on the processing

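Counts of clock genes past the fold limit depended on the setting. Between D1 and D2 the main count was 3 genes (Clock, Npas2 and Nr1d2), all in the direction of D1. Counted in either direction, it was 0 with a pseudocount of 10 TPM, which shrinks folds of genes at this level. It was 1 (Npas2) with cells under 4000 genes left out. It stayed within 1.5 times in the other 13 alternatives, though with different genes. They were Npas2 and Nr1d1 after rescaling to the median of widely found genes. Without FACS086_4 they were Per3 (-1.04, toward D2) and Nr1d2, and as a difference of mean log2 values Clock and Dbp (-1.17, toward D2). Among the 15671 genes averaging 1 TPM or more, 3301 were above 1 and 2314 below -1 in the main setting. These were 727 and 520 with the pseudocount of 10 TPM, 3243 and 2545 without cells under 4000 genes, and 4292 and 2869 after the rescaling. On both large plates (1 gene, Clock) the count of clock genes was 0 with a pseudocount of 10 TPM and 2 (Clock and Nr1d1) after that rescaling. Between plates (0 genes) it was 1 (Nr1d1) as a difference of mean log2 values and 1 (Clock) after the rescaling. For these plate counts, the calls among all genes were not taken under each setting. Except for the pseudocount, the cause was not tested. The log2 fold of Clock between D1 and D2 was above 0 in 15 of 15 alternatives (0.61 to 1.48, 11 of them past 1), and that of Dbp below 0 in all 15 (-1.17 to -0.35, 1 past the limit). Npas2 (0.35 to 2.05), Nr1d2 (0.29 to 1.79) and Nr1d1 (0.25 to 1.20) also kept their sign. Per1 changed sign only after the rescaling (-0.03), and Cry2, Per3 and Per2 in 6, 4 and 2 alternatives. The rescaling moved the median fold of all genes from 0.09 to 0.21, and the difference of mean log2 values raised the share of genes past the limit that were higher in D1 from 58.8% to 73.9%. No paired analysis was possible because no test was made and the labels number no replicates. With TPM the depth of a cell is unknown, so a clock gene listed at 0 may have been present.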

Other observations

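The 2 cholinergic interneurons among the Drd2 reporter cells, in wells A08 and B02 of FACS051_5, had 10251 to 10912 genes above 1 TPM, more than any MSN, with 5 and 3 of the clock genes above 1 TPM. Clock was at 12.1 and 15.2 TPM, Dbp at 2.07 and 41.9 TPM and Nr1d2 at 3.74 and 19.1 TPM. Npas2 and Nr1d1 were listed at 0 in both cells, and Per1 was at 0.963 TPM and 0. With 2 cells no comparison with MSN was made.

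The genes whose TPM followed a clock gene most closely within both large plates were taken among 7768 genes found in at least 25% of the cells, by the mean of the Spearman correlations over 34 and 40 MSN. The values below are the largest of that many, picked from these same cells, and whether unrelated genes would reach them was not tested. For Per1 the nearest were D930015E06Rik (0.55) and Chuk (0.52), for Dbp Apopt1 (0.53) and Med28 (0.48), and for Per3 B230209E15Rik (0.53) and Lyrm4 (0.48). For Clock they were Gm12758 (0.52) and Gm21685 (0.51), for Nr1d1 Rap1gap and Gm43880 (both 0.51), and for Nr1d2 Ganab (0.42) and Gm10012 (0.41). The number of genes found per cell itself gave 0.05 (Nr1d2) to 0.45 (Per1), and none of these nearest genes was a clock gene. Per2 was found in too few cells for this.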
